A study of Oryza sativa with 4 samples.

Results

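Homeobox and MADS-box genes encode the transcription factors best known for patterning the plant body, and their leaf transcripts were compared between rice plants overexpressing the NAC transcription factor *OsNAC14* and nontransgenic plants. The members were taken by their deposited descriptions, which had to contain homeobox, homeodomain or MADS and not Myb. The Myb condition left out 0 transcripts. This gave 186 transcripts of 169 genes among the 37972 transcripts of 31414 genes in the table: 154 transcripts of 138 homeobox genes and 32 transcripts of 31 MADS-box genes. The OsNAC14OX group consisted of 2 libraries from transgenic plants that carry *OsNAC14* under PGD1, a promoter active in the whole plant. The NT group consisted of 2 libraries from nontransgenic plants of the cultivar Nakdong, which is also the cultivar that the study transformed. The study describes the transgenic plants as T4 progeny of 1 transformed line, so the group stands for a single insertion event. Leaves were taken under normal growth without drought from plants described as 2 weeks old in the protocol and 20 days old in the labels, whose cultivar entry also names another cultivar, a misspelt Nipponbare. The study calls the samples of a group biological duplicates, without saying whether each came from 1 plant or from pooled plants. The p-values therefore measure only the spread between these libraries. The column names of both NT libraries carry a number that those of OsNAC14OX lack, with no meaning given. Were it a batch, it cannot be told apart from the overexpression.

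Homeobox proteins bind DNA through the homeodomain, a short helical fold, and plants have several classes of them. KNOX and BELL proteins form pairs that keep shoot meristems indeterminate or act in differentiating organs, WOX proteins maintain stem cells, and the HD-Zip proteins join the homeodomain to a leucine zipper and act in light and stress responses (classes I and II), leaf polarity and vascular tissue (class III) or the epidermis (class IV). ZF-HD proteins combine a zinc finger with the homeodomain. MADS-box proteins share another DNA-binding domain and set flowering time, floral meristem identity and the identity of floral organs, with some members acting in vegetative tissue. Of the 154 homeobox transcripts, 81 (52.6%) are described only as homeodomain-like or homeodomain-related, a fold term that also covers proteins of the Myb type, so these were treated as a group of their own.

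Abundance was given as FPKM, the authors' read density per transcript length and per mapped reads; the number of reads behind a value is unknown. *OsNAC14* itself (Os01t0675800-01, chromosome 1, 27780948 to 27782265, IRGSP-1.0) checked the labels. It had 16.4 and 16.3 FPKM in the OsNAC14OX libraries, against 3.16 and 3.70 FPKM in the NT libraries, and it rose by 1.99 on the log2 scale with a limma adjusted p of 0.0204. The call was lost on omitting OsNAC14OX replicate 1 (limma adjusted p 0.0605), NT replicate 1 (0.124) or NT replicate 2 (0.303). Between 29446 and 29947 transcripts per library reached 1 FPKM. Leaf markers were abundant: the 16 light-harvesting transcripts summed to 7140 and 9396 FPKM in OsNAC14OX and to 7660 and 7422 FPKM in NT. The only small Rubisco subunit transcript on the list (Os12t0291100-02) had 794 and 811 FPKM in OsNAC14OX and 413 and 285 FPKM in NT (limma adjusted p 0.175). The 4 root transcripts summed to 205 and 419 FPKM in OsNAC14OX and to 442 and 440 FPKM in NT, mostly through *RCc3*, so this marker list was not silent in leaves. In whole leaves, fewer cells of a type and less RNA per cell cannot be told apart.

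No homeobox or MADS-box transcript passed the test. Transcripts with at least 1 FPKM in at least 2 of the 4 libraries were tested with limma on the authors' quantile-normalized log2(FPKM + 1) values, and those with an adjusted p under 0.05 and at least a 2-fold change were called. Among all 30251 transcripts tested, 76 (0.251%) were called higher and 92 (0.304%) lower in OsNAC14OX. Among the 127 tested homeobox transcripts and the 21 tested MADS-box transcripts, the count was 0 in either direction. At an unadjusted p under 0.05, limma gave 5 homeobox transcripts on the higher side (3.94%, against 4.09% of all tested transcripts) and 12 on the lower side (9.45%, against 5.31%). For the MADS-box transcripts these counts were 0 and 1 (4.76%). Single libraries moved these counts: the homeobox count on the higher side was 10 and 11 on omitting OsNAC14OX replicate 1 and replicate 2, and 2 and 1 on omitting NT replicate 1 and replicate 2, while the lower side had 5 on omitting NT replicate 2. The 168 calls in the whole table became 59 and 772 on omitting OsNAC14OX replicate 1 and replicate 2, and 0 on omitting either NT replicate. The median log2 fold change was -0.02 for homeobox transcripts, 0.01 for MADS-box transcripts and 0.00 for all tested transcripts.

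MADS-box log2 fold changes ran only between -0.35 and 0.29, and the 95% interval of each of the 21 tested transcripts lay within a 2-fold change in either direction. Homeobox log2 fold changes ran between -1.88 and 2.32, 5 of them were beyond 2-fold, as were 781 of all 30251 tested transcripts, and for 104 of the 127 the 95% interval stayed within 2-fold. For the same measure, 25450 of the 30251 tested transcripts had intervals within 2-fold. All these folds are of FPKM + 1, which at low levels lie nearer to no change than folds of FPKM. Os08t0438100-01, with a ratio of mean FPKM of 0.341, was thus not among the 5 beyond 2-fold. Of the 21 tested MADS-box transcripts, 13 had a mean under 10 FPKM. The libraries of the groups did not overlap for 18 homeobox transcripts with OsNAC14OX above NT (14.2%, against 20.4% of all) and 29 with OsNAC14OX below NT (22.8%, against 20.6%). For the MADS-box transcripts there were 6 (28.6%) and 7 (33.3%).

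**Figure D1:**
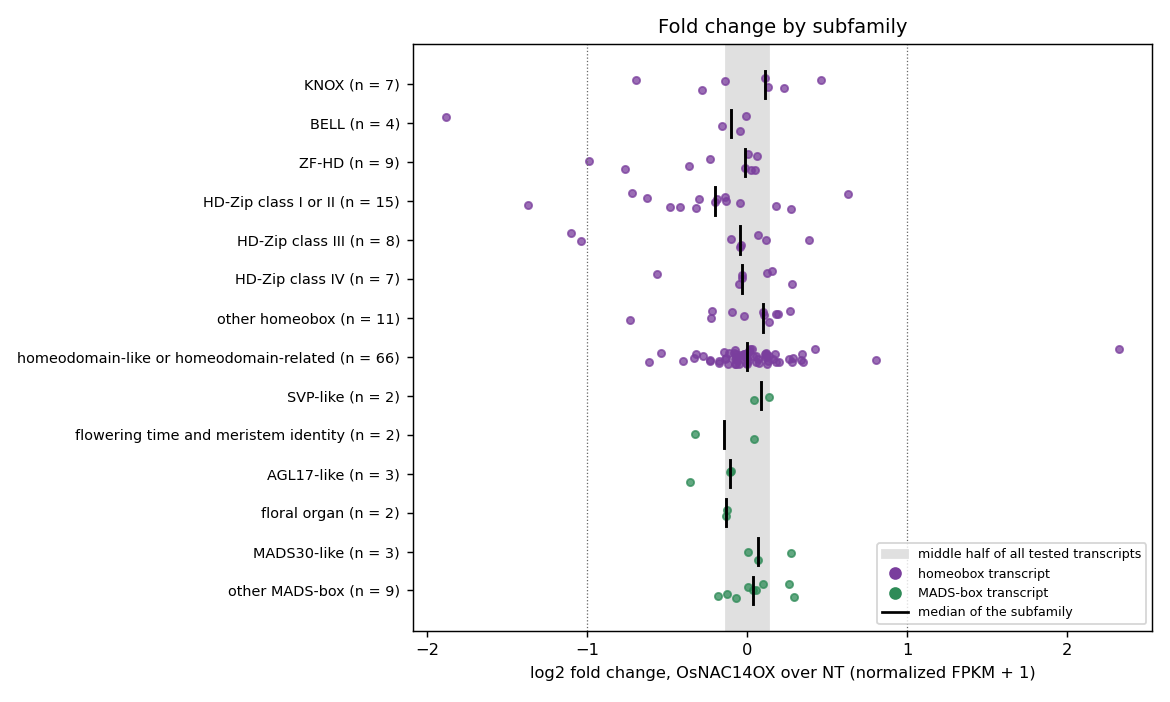
The log2 fold change, OsNAC14OX over NT, is shown for each tested homeobox transcript (purple) and MADS-box transcript (green), by subfamily, with the median as a black bar, the middle 50% of all tested transcripts as a grey band and dotted lines at a 2-fold change. MADS-box points stay between -0.35 and 0.29, while homeobox points reach -1.88 and 2.32.

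The transcript nearest to a call was Os11t0282700-01 (chromosome 11, 10081836 to 10086180), described as homeodomain-like and the only transcript of its gene. It had 6.79 and 4.73 FPKM in the OsNAC14OX libraries, against 0.265 and 0.456 FPKM in the NT libraries. Both OsNAC14OX libraries were far above both NT libraries, which stayed under 1 FPKM, so the transcript entered the test only through the group in which it was high. The log2 fold change was 2.32 ± 0.20 (SE), with a 95% interval of 1.77 to 2.87, on a scale that adds 1 to each FPKM, and the limma adjusted p of 0.0508 missed the threshold. With FPKM summed per gene, where 187 of 25811 gene sums (0.724%) were called in either direction, it was the only 1 of 140 member genes to be called (limma adjusted p 0.0398). At the transcript level it was called without OsNAC14OX replicate 2 (0.0314), where calls in the whole table reached 772, and without the variance trend (0.0458). Since its entry depended on OsNAC14OX, these p-values are no independent support for its difference. Since its description is the broad fold term, it cannot be placed in a homeobox class from the deposited annotation.

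HD-Zip transcripts of classes I and II, which in other plants act in shade and water-deficit responses, had the lowest subfamily median among homeobox groups with tested members, -0.20 over 15 tested transcripts. At an unadjusted p under 0.05, 1 of the 15 was on the higher side (6.67%, against 4.09% of all) and 3 were on the lower side (20.0%, against 5.31%). The transcript with the smallest p was Os10t0103700-01 (chromosome 10, 284721 to 286949), described as similar to HOX15. Its FPKM were 5.49 and 6.87 in OsNAC14OX, against 18.7 and 17.1 in NT. Replicates lay close together and the groups were well apart. The log2 fold change was -1.37 ± 0.14 (SE; 95% interval -1.76 to -0.98), with a limma adjusted p of 0.0785, which misses the threshold, and of the alternatives run it was called only on omitting OsNAC14OX replicate 2 (0.0356), where calls in the whole table also reached 772.

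The other transcripts of the HOX15-like gene did not follow it to the same extent. Os10t0103700-02 had 2.53 and 5.89 FPKM in OsNAC14OX, against 5.91 and 7.74 FPKM in NT. Os10t0103700-03, described as an HD-ZIP fragment and so outside the description rule, had 2.78 and 3.98 FPKM in OsNAC14OX, against 2.43 and 2.09 FPKM in NT. The first transcript thus held 50.9% and 41.0% of the gene's FPKM in OsNAC14OX and 69.2% and 63.5% in NT. Summed over all 3 transcripts, the gene had 10.8 and 16.7 FPKM in OsNAC14OX and 27.1 and 26.9 FPKM in NT, a log2 fold change of -0.93 (limma adjusted p 0.3204). Of 119 homeobox genes, 2 (1.68%) lay within 5 tested genes of a called gene, against 4.71% of all tested genes. The nearest tested gene on one side of the HOX15-like gene, Os10t0102900-00, was called higher (limma adjusted p 0.00639). It had 13.7 and 13.05 FPKM in OsNAC14OX against 0.0094 and 0.0123 FPKM in NT. Both NT libraries were under 1 FPKM, so this transcript entered the test only through OsNAC14OX. Its p-value is therefore no independent support for its difference.

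Other HD-Zip I and II transcripts gave smaller values. The most abundant, Os08t0416000-01, had 52.6 and 65.4 FPKM in OsNAC14OX and 56.8 and 68.1 FPKM in NT, and the replicates of a group differed more than the groups. Os02t0565600-01 had 4.64 and 5.39 FPKM in OsNAC14OX and 7.34 and 7.79 FPKM in NT (log2 fold change -0.48). The HOX21-like Os03t0170600-01 had 15.8 and 17.1 FPKM in OsNAC14OX and 21.8 and 20.5 FPKM in NT (log2 fold change -0.32). In the other direction stood the HOX22-like Os04t0541700-01, named after a rice gene tied to abscisic acid and drought, with 4.78 and 3.18 FPKM in OsNAC14OX and 2.15 and 2.32 FPKM in NT (log2 fold change 0.63, limma adjusted p 0.467). The groups did not overlap for the last 3 transcripts, and none passed the test. These 3 also had an unadjusted limma p under 0.05, so the lack of overlap is no separate support. Among all tested transcripts, the groups did not overlap for 20.4% with OsNAC14OX above NT and 20.6% below.

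**Figure D2:**
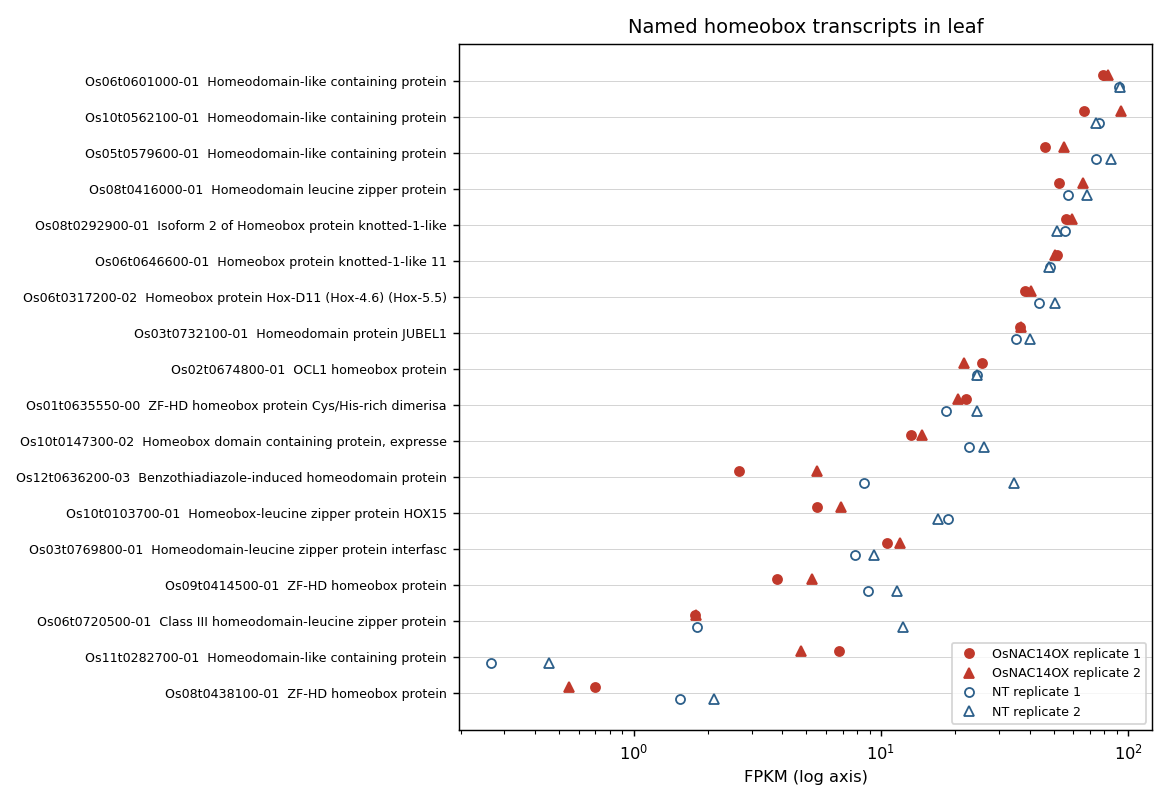
FPKM in each library (log axis) is shown for the homeobox transcripts with the smallest p, the largest fold changes and the highest levels, with OsNAC14OX as filled red symbols above NT as open blue symbols for each transcript. Os11t0282700-01 and Os10t0103700-01 show the clearest gaps between the groups, and for Os12t0636200-03 and Os06t0720500-01 NT replicate 2 lies alone at the right.

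Class III HD-Zip genes, which specify the upper side of the leaf and vascular tissue, had a median log2 fold change of -0.04 over 8 tested transcripts. Os03t0769800-01, named after the *Arabidopsis* gene *REVOLUTA* (interfascicular fiberless), had 10.6 and 12.0 FPKM in OsNAC14OX, against 7.88 and 9.39 FPKM in NT. Both OsNAC14OX libraries were above both NT libraries, by a small margin (log2 fold change 0.38, limma adjusted p 0.509). Both transcripts similar to ATHB-14, Os12t0612700-01 and Os03t0640800-01, had log2 fold changes of -0.04. Os06t0722300-01 and Os06t0722650-01 had 6.93 and 7.83 FPKM, and 6.30 and 7.09 FPKM, in OsNAC14OX, and 7.53 and 6.84 FPKM, and 6.84 and 5.66 FPKM, in NT. Together with Os06t0720500-01 they form 3 loci on chromosome 6 with the same description, the same transcript length of 3946 bases and starts at 30670862, 30686347 and 30604216, so how reads were shared among them is uncertain.

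In this class the largest log2 fold changes came from 1 library. Os06t0720500-01 had 1.77 and 1.78 FPKM in OsNAC14OX, and 1.81 and 12.3 FPKM in NT. Only NT replicate 2 differed, so the log2 fold change of -1.10 had a 95% interval from -3.25 to 1.05. The HOX9-like Os10t0480200-03 had 2.03 and 2.56 FPKM in OsNAC14OX, and 3.12 and 10.5 FPKM in NT, again with NT replicate 2 alone at a high level. The gene's other transcripts carry the description Rolled leaf1, after a maize leaf polarity gene. Of these, Os10t0480200-01 had 9.09 and 8.15 FPKM in OsNAC14OX and 12.0 and 15.9 FPKM in NT, and Os10t0480200-02 had 3.83 and 4.80 FPKM in OsNAC14OX and 1.70 and 2.33 FPKM in NT. The groups were thus ordered in opposite ways by these transcripts, and neither passed the test (limma adjusted p 0.414 and 0.267).

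Class IV HD-Zip genes, expressed in the epidermis, had a median of -0.03 over 7 tested transcripts. The most abundant, the OCL1-like Os02t0674800-01, had 25.7 and 21.7 FPKM in OsNAC14OX and 24.5 and 24.5 FPKM in NT, with NT between both OsNAC14OX values. The ROC8-like Os06t0207966-00 had 5.92 and 4.42 FPKM in OsNAC14OX, against 7.94 and 8.54 FPKM in NT (log2 fold change -0.56, limma adjusted p 0.434). The next homeobox transcript along chromosome 6, the HOX3-like Os06t0208100-00, had 8.05 and 6.02 FPKM in OsNAC14OX and 9.42 and 10.4 FPKM in NT. The ROC8-like transcript ends at 5500323 and the HOX3-like one starts at 5501594, and both were below NT in both OsNAC14OX libraries. The GLABRA2-like Os09t0526300-00 (20573266 to 20573862) lies inside the span of the ROC6-like Os09t0526200-01 (20568029 to 20574897), and its 19.8 and 12.1 FPKM in OsNAC14OX and 14.9 and 14.0 FPKM in NT may share reads with it.

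KNOX genes include class I members, active in meristems and largely silent in mature leaves, and class II members, which are widely expressed. The highest KNOX levels belonged to descriptions other than the OSH meristem genes. The knotted-1-like 13 transcript Os08t0292900-01 had 55.7 and 59.2 FPKM in OsNAC14OX and 55.7 and 51.4 FPKM in NT. The knotted-1-like 11 transcript Os06t0646600-01 had 51.3 and 50.7 FPKM in OsNAC14OX and 48.3 and 47.6 FPKM in NT. The log2 fold changes of these transcripts were small, 0.13 (95% interval -0.14 to 0.40) and 0.11 (-0.11 to 0.32). Most of the knotted-1-like 11 gene's FPKM lay in another transcript, Os06t0646600-02, whose description is outside the rule. It had 187 and 182 FPKM in OsNAC14OX and 179 and 185 FPKM in NT (log2 fold change 0.08).

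The meristem-type KNOX transcripts were detected at lower levels. *OSH15* (Os07t0129700-01), which in rice is needed for normal internode growth, had 7.05 and 8.57 FPKM in OsNAC14OX, against 5.05 and 5.98 FPKM in NT. *OSH6* (Os01t0302500-01) had 3.78 and 4.44 FPKM in OsNAC14OX and 3.08 and 3.81 FPKM in NT, and *OSH71* (Os05t0129700-01) had 7.73 and 8.11 FPKM in OsNAC14OX and 8.58 and 9.49 FPKM in NT. *OSH15* was above NT in both OsNAC14OX libraries (log2 fold change 0.46, limma adjusted p 0.466), while *OSH71* was below it. Markers of dividing cells, a list matched on histone H4, cyclin-B1 and PCNA descriptions that also took in histone H4 acetyltransferase and calcyclin-binding transcripts, summed to 1341 and 1565 FPKM in OsNAC14OX and to 1412 and 1439 FPKM in NT. Their median log2 fold change was 0.08 over 19 tested transcripts, and their part in the *OSH15* values was not tested.

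The remaining KNOX values had the other order. The knotted-1-like 3 transcript Os03t0123500-02 had 15.4 and 12.5 FPKM in OsNAC14OX and 18.7 and 29.7 FPKM in NT (log2 fold change -0.70, limma adjusted p 0.528). NT replicate 2 was the highest library for it too. Its sister transcript Os03t0123500-01, described as HOS66 and outside the rule, lacked this excess. It had 19.2 and 11.4 FPKM in OsNAC14OX and 19.0 and 14.7 FPKM in NT. Summed over both, the gene's log2 fold change was -0.47 (limma adjusted p 0.569). Across the 7 tested KNOX transcripts, 1 was on the higher and 1 on the lower side at an unadjusted p under 0.05 (14.3% each, against 4.09% and 5.31% of all).

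BELL proteins pair with KNOX proteins, and the most abundant BELL transcript was the JUBEL1-like Os03t0732100-01, named after a barley gene. It had 36.3 and 37.0 FPKM in OsNAC14OX, within the 35.1 and 39.9 FPKM of NT. The shorter JUBEL1-like Os03t0732700-01 lies within its span (30006382 to 30006846, inside 30003190 to 30014029), so their reads may not be separable. The most negative log2 fold change of all members, -1.88, belonged to Os12t0636200-03, similar to Benzothiadiazole-induced homeodomain protein 1, a rice BELL protein tied to disease resistance. Its FPKM were 2.68 and 5.50 in OsNAC14OX and 8.58 and 34.4 in NT, so the NT libraries differed from each other more than NT replicate 1 did from either OsNAC14OX library, and the limma adjusted p was 0.558. Its sister transcript Os12t0636200-01, described as Prep, had 21.3 and 31.0 FPKM in OsNAC14OX and 28.8 and 24.7 FPKM in NT, with no such excess in NT replicate 2.

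**Figure D3:**
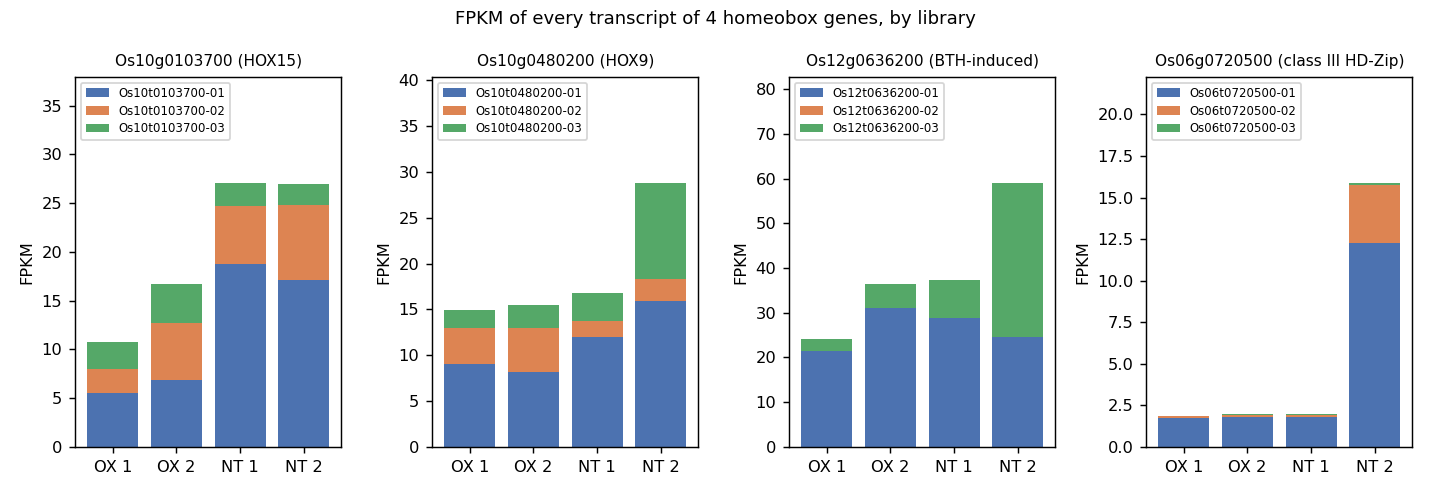
Stacked bars give the FPKM of every transcript of 4 homeobox genes in each library, OsNAC14OX (OX) left of NT. The HOX15-like gene is below NT in both OsNAC14OX libraries through its first transcript, while in the other 3 genes NT replicate 2 stands above the remaining libraries, mostly through 1 transcript.

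WOX genes mark stem cells and early organ founder cells. The 2 transcripts described as WUSCHEL-related were below the limit for testing. Any WOX transcripts described otherwise were counted in other homeobox groups. The WOX6-like Os03t0325600-01 had 0.513 and 0.627 FPKM in OsNAC14OX and 0.411 and 0.363 FPKM in NT. The WOX3B-like Os05t0118700-00 had 0.0812 and 0.176 FPKM in OsNAC14OX and 0.119 and 0.155 FPKM in NT. The WOX6-like values of OsNAC14OX were above those of NT in both libraries. Summed with its homeodomain-like transcript Os03t0325600-02, the gene had 1.32 and 1.59 FPKM in OsNAC14OX and 1.01 and 1.22 FPKM in NT (log2 fold change 0.25, limma adjusted p 0.610).

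All 9 ZF-HD transcripts were tested, with a median log2 fold change of -0.01, and 2 of them (22.2%, against 5.31% of all tested transcripts) were on the lower side at an unadjusted p under 0.05. Os09t0414500-01 (chromosome 9, 14793742 to 14794393) had 3.81 and 5.27 FPKM in OsNAC14OX, against 8.85 and 11.6 FPKM in NT (log2 fold change -0.99 ± 0.20 SE, limma adjusted p 0.282). Os08t0438100-01 (chromosome 8, 21280711 to 21281328) had 0.696 and 0.547 FPKM in OsNAC14OX, against 1.54 and 2.11 FPKM in NT (log2 fold change -0.76 ± 0.15 SE, limma adjusted p 0.264). In both cases every OsNAC14OX library was below every NT library. Os08t0438100-01 was under 1 FPKM in both OsNAC14OX libraries and entered the test only through NT. Its p-value, and with it its place among the 2 on the lower side, is therefore no independent support for its difference. Each of these has another ZF-HD transcript nearby on its chromosome that did not share this order. Os09t0414600-02 (14812210 to 14813725) had 19.1 and 16.2 FPKM in OsNAC14OX and 18.4 and 15.8 FPKM in NT, and Os08t0438400-01 (21307601 to 21309069) had 2.03 and 2.16 FPKM in OsNAC14OX and 2.23 and 2.10 FPKM in NT.

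A further pair of ZF-HD transcripts, Os11t0128300-01 and Os12t0124500-01, sits near the start of chromosomes 11 and 12. They had 12.4 and 19.6 FPKM, and 11.5 and 19.6 FPKM, in OsNAC14OX, and 20.1 and 21.5 FPKM, and 16.3 and 20.4 FPKM, in NT. Both were lowest in OsNAC14OX replicate 1. These chromosome ends are known as a recent duplication in rice, so their reads may have been split between them.

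Among transcripts with the broad homeodomain-like description, 66 of 81 were tested and the median log2 fold change was 0.00. At an unadjusted p under 0.05, 2 were on the higher side (3.03%, against 4.09% of all) and 4 on the lower side (6.06%, against 5.31%). The most abundant homeobox transcript that met the description rule, Os06t0601000-01, belongs here. It had 78.9 and 82.9 FPKM in OsNAC14OX and 91.6 and 92.6 FPKM in NT (log2 fold change -0.14). Os05t0579600-01 (chromosome 5, 28845110 to 28846124) had 46.1 and 54.8 FPKM in OsNAC14OX, against 74.1 and 85.4 FPKM in NT (log2 fold change -0.61, limma adjusted p 0.345). Its near neighbour Os05t0579300-01 (28835774 to 28836869), with the homeodomain-related description, had the opposite order, with 2.90 and 3.32 FPKM in OsNAC14OX and 2.21 and 2.36 FPKM in NT (log2 fold change 0.35). Without this broad group, the 61 other tested homeobox transcripts had a median of -0.04, with 3 on the higher side (4.92%, against 4.09% of all) and 8 on the lower side (13.1%, against 5.31%) at an unadjusted p under 0.05.

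A homeobox domain transcript with no class in its description, Os10t0147300-02 (chromosome 10, 2843429 to 2845284), had the third smallest p of the family. Its FPKM were 13.3 and 14.6 in OsNAC14OX, against 22.7 and 26.1 in NT, with no overlap (log2 fold change -0.73 ± 0.12 SE, limma adjusted p 0.199). The plant-specific classes do not cover the description Hox-D11, an animal gene, given to Os06t0317200-02. It had 38.3 and 40.5 FPKM in OsNAC14OX and 43.8 and 50.6 FPKM in NT. The other transcripts of that gene are described as glycine-rich proteins, so its place among homeobox genes rests on 1 description.

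Among MADS-box genes the most abundant transcripts were those of flowering-time and vegetative regulators, and their levels were nearly equal in the groups. The MADS55-like Os02t0761000-01, of the SVP-like repressors of flowering, had 78.4 and 74.97 FPKM in OsNAC14OX and 70.1 and 73.4 FPKM in NT (log2 fold change 0.14, 95% interval -0.08 to 0.35). The PTM5-like Os01t0922800-01 had 61.8 and 66.2 FPKM in OsNAC14OX and 62.9 and 68.9 FPKM in NT. The MADS56-like Os10t0536100-01, of a rice family that acts in flowering time, had 51.9 and 56.2 FPKM in OsNAC14OX and 52.6 and 54.5 FPKM in NT. For both of the last, the groups overlapped and the 95% intervals of the log2 fold change, -0.26 to 0.27 and -0.22 to 0.30, were narrow.

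*OsMADS18* (Os07t0605200-01, chromosome 7, 24788476 to 24793679), which promotes flowering in rice, was the only MADS-box transcript with an unadjusted p under 0.05. It had 17.8 and 17.98 FPKM in OsNAC14OX, against 22.8 and 23.4 FPKM in NT. Replicates differed little and the groups were apart, with a log2 fold change of -0.33 (95% interval -0.57 to -0.09, limma adjusted p 0.398), which did not pass the test.

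**Figure D4:**
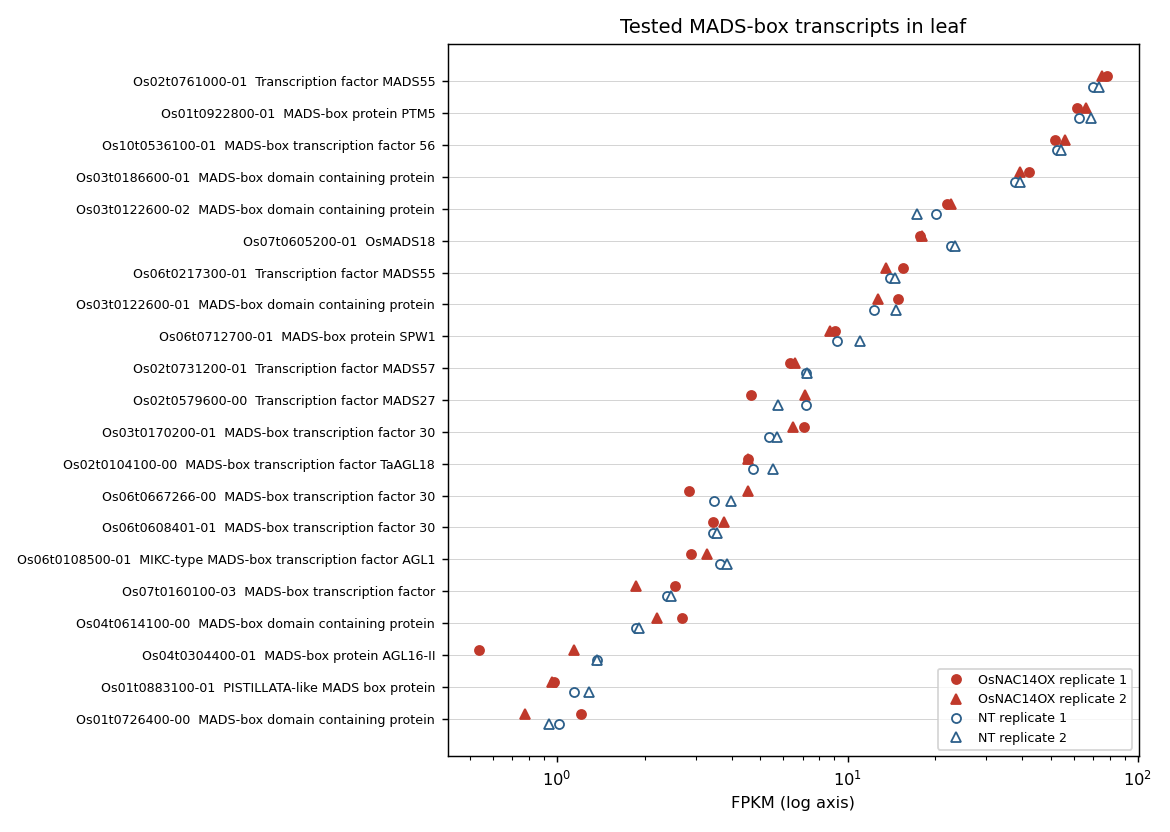
FPKM in each library (log axis) is shown for the 21 tested MADS-box transcripts, with OsNAC14OX as filled red symbols above NT as open blue symbols for each transcript. Values run from 0.539 to 78.4 FPKM, and for *OsMADS18* both OsNAC14OX symbols lie left of both NT symbols.

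Of the 21 tested MADS-box transcripts, 12 had a positive and 9 a negative log2 fold change. Os03t0122600-02, described only by its MADS-box domain, had 21.95 and 22.7 FPKM in OsNAC14OX and 20.2 and 17.3 FPKM in NT (log2 fold change 0.26), and Os03t0186600-01 had 42.1 and 39.1 FPKM in OsNAC14OX and 37.7 and 39.2 FPKM in NT. The MADS30-like Os03t0170200-01 had 7.06 and 6.48 FPKM in OsNAC14OX and 5.37 and 5.70 FPKM in NT (log2 fold change 0.27). The largest log2 fold changes in either direction were those of weakly detected transcripts. Os04t0614100-00 had 2.69 and 2.20 FPKM in OsNAC14OX and 1.87 and 1.92 FPKM in NT (0.29), and the AGL16-II-like Os04t0304400-01 had 0.539 and 1.14 FPKM in OsNAC14OX and 1.38 and 1.37 FPKM in NT (-0.35). *MADS57* (Os02t0731200-01), which acts in tillering in rice, had 6.33 and 6.57 FPKM in OsNAC14OX and 7.21 and 7.23 FPKM in NT, a log2 fold change of -0.11.

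Floral organ identity genes were low in these leaves with 1 exception. *SPW1* (Os06t0712700-01), a class B gene needed for stamens and lodicules, had 9.06 and 8.73 FPKM in OsNAC14OX and 9.21 and 11.04 FPKM in NT. The PISTILLATA-like Os01t0883100-01 was near 1 FPKM, with 0.978 and 0.961 in OsNAC14OX and 1.14 and 1.28 in NT. The other PISTILLATA-like transcript, Os05t0423400-01, had 0.294 and 0.178 FPKM in OsNAC14OX and 0.223 and 0.249 FPKM in NT, and *MADS17* (Os04t0580700-01) had 0.0707 and 0.0769 FPKM in OsNAC14OX and 0.138 and 0.135 FPKM in NT. None of the 3 untested floral transcripts reached 1 FPKM in any library. Of these, Os03t0215400-01, annotated with sexual reproduction, had 0.967 and 0.681 FPKM in OsNAC14OX and 0.0835 and 0.272 FPKM in NT, and was not tested. A list matched on the words pollen or anther gave a median log2 fold change of -0.04 over 44 tested transcripts. It summed to 3366 and 4169 FPKM in OsNAC14OX and to 3606 and 3885 FPKM in NT, so this list was not silent in leaves and does not mark those organs here.

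In total, 34 of the 186 members reached 1 FPKM in no library and 4 in exactly 1, so 27 homeobox and 11 MADS-box transcripts were not tested. In 139 members every library reached 1 FPKM. Of the 169 member genes, 26 also have transcripts described otherwise. Os07t0160100-03 shows what this can mean: it is described as MADS-box, but its gene's main transcript, Os07t0160100-02, is described as the YABBY protein *OsYAB1* and held 81.6% and 85.2% of the gene's FPKM in OsNAC14OX and 82.3% and 84.2% in NT. Likewise the abundant Os10t0562100-01, with 66.5 and 93.4 FPKM in OsNAC14OX and 75.9 and 73.7 FPKM in NT, belongs to a gene whose minor transcript is described as *MYBS2*.

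Other families that act in leaf and shoot development were described from lists of their own. On lists of YABBY, SBP, LOB, GRF and OVATE genes, limma called 0 transcripts, and the single TCP transcript was too low to be tested. The GRF list was meant for growth-regulating factors. It also took in transcripts described as zinc finger GRF-type or GRF zinc finger family, so its counts do not stand for growth-regulating factors alone. At an unadjusted p under 0.05, limma gave 1 of 7 tested YABBY transcripts (14.3%), 1 of 9 SBP transcripts (11.1%) and 1 of 16 LOB transcripts (6.25%) on the higher side, against 4.09% of all, and 0 of 8 GRF transcripts and 0 of 1 OVATE transcript. On the lower side the count was 0 for each of these lists, against 5.31% of all. The YABBY transcript Os12t0621100-02 had 11.3 and 11.6 FPKM in OsNAC14OX and 9.003 and 7.78 FPKM in NT (log2 fold change 0.44, limma adjusted p 0.423). On a list of gibberellin oxidases, limma called 0 of 5 tested transcripts, against 0.251% of all called higher and 0.304% called lower. At an unadjusted p under 0.05, 1 of the 5 was on the lower side (20.0%, against 5.31% of all). This transcript, Os08t0249900-00, similar to gibberellin 20 oxidase 2, had 1.68 and 1.97 FPKM in OsNAC14OX and 4.82 and 7.84 FPKM in NT (log2 fold change -1.31, limma adjusted p 0.220). The log2 fold changes of the other 4 were -0.36, -0.28, 0.07 and 0.08.

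Differences between replicates are given with no test. The median absolute log2 difference between replicates was 0.19 in OsNAC14OX and 0.13 in NT for homeobox transcripts. It was 0.12 in OsNAC14OX and 0.05 in NT for MADS-box transcripts, and 0.17 in OsNAC14OX and 0.12 in NT for all tested transcripts. Replicates were 2-fold or more apart for 4 of the 127 tested homeobox transcripts in OsNAC14OX and 3 in NT. For the 21 tested MADS-box transcripts the count was 0 in either group. Among all 30251 tested transcripts it was 1410 in OsNAC14OX and 689 in NT. In OsNAC14OX, the HOX8-like Os10t0377300-01 had 4.58 and 14.3 FPKM, against 13.2 and 16.1 FPKM in NT, and the HOX6-like Os09t0528200-02 had 2.08 and 10.4 FPKM, against 6.75 and 4.73 FPKM in NT. The homeodomain-like Os01t0685400-01 had 16.9 and 3.87 FPKM in OsNAC14OX, against 4.04 and 4.76 FPKM in NT, and Os05t0560600-01 had 18.1 and 5.78 FPKM in OsNAC14OX, against 8.52 and 8.34 FPKM in NT. OsNAC14OX replicate 1 was below replicate 2 for Os10t0377300-01 and Os09t0528200-02, and above it for both homeodomain-like transcripts. The other HOX6-like transcript, Os09t0528200-01, had the opposite order, with 13.03 and 8.43 FPKM in OsNAC14OX and 10.9 and 14.01 FPKM in NT, and the gene summed to 15.1 and 18.8 FPKM in OsNAC14OX and 17.7 and 18.7 FPKM in NT.

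**Figure D5:**
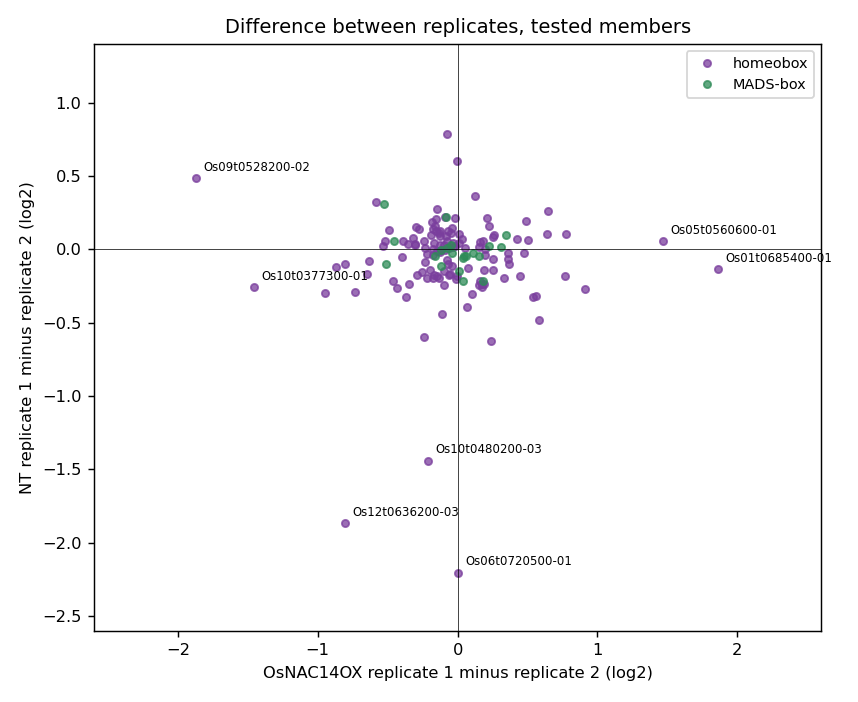
Each point is a tested homeobox (purple) or MADS-box (green) transcript, with the log2 difference between replicates in OsNAC14OX on the horizontal axis and in NT on the vertical axis. Labels mark the 4 transcripts that are 2-fold or more apart in OsNAC14OX and the 3 in NT, all of them homeobox transcripts.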

How the data were processed

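The authors trimmed reads with Trimmomatic and mapped them with TopHat to IRGSP-1.0 with RAP-DB models. They deposited FPKM per transcript (made with a tool not given in the sources used here) and log2(FPKM + 1) values that they quantile normalized; 4 further value columns are of libraries outside the series and were not used, nor were the authors' fold, mean, SD and p-value columns. The labels name a strand-specific library method and the study an unstranded kit, so antisense reads may not be separable. The normalized log2 values were compared with limma 3.58.1 (R 4.3.3; eBayes with a variance trend, two-sided) for 30251 transcripts with at least 1 FPKM in at least 2 libraries, with Benjamini-Hochberg adjustment over all of them. No count model was used, since FPKM are not counts, and depth and counting error are unknown. Summaries used Python 3.11.15.

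Members and lists were chosen with earlier results of these data known. The genes named were *OsNAC14*, called members, and per family the 6 with the smallest p, the 4 with the largest log2 fold change and the 6 with the highest FPKM, with the highest of each subfamily. Others were named after their values were seen. Subfamilies follow the deposited descriptions. The gibberellin list pattern also takes in 20-oxidases, and the GRF list pattern takes in zinc finger GRF-type transcripts. Alternatives were no quantile normalization, pseudocounts of 0.1 and 0.5, other FPKM filters, gene sums, no variance trend, no fold threshold, a replicate block and each library left out. Starts were converted to count from 1.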

Additional observations from a re-analysis of the deposited data

How the results depend on the processing

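With 2 libraries a group, single libraries decided most counts, and when 1 was left out the lone library was assumed to vary like the others. The count of called transcripts in the whole table was 168 with all libraries, 109 with no filter on FPKM, and between 0 and 772 with 1 library left out (0 without either NT replicate, 59 without OsNAC14OX replicate 1, 772 without OsNAC14OX replicate 2). Homeobox calls were 0, but 1 with FPKM summed per gene, 1 without the variance trend (Os11t0282700-01 both times) and 0 to 4 with 1 library left out. The 4, without OsNAC14OX replicate 2, were Os11t0282700-01 (limma adjusted p 0.0314), Os10t0103700-01 (0.0356), Os01t0685400-01 (0.0334) and Os05t0560600-01 (0.04998), the last pair being transcripts whose OsNAC14OX replicates disagree. MADS-box calls were 0 under every alternative run.

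The count of homeobox transcripts on the higher side at an unadjusted p under 0.05 was 5. It was 3 without quantile normalization with a pseudocount of 1, 0.1 or 0.5, 8 with no filter, 2 at an FPKM of at least 5, and 1 to 11 with 1 library left out. On the lower side, the 12 became 5 to 18. For MADS-box transcripts the higher side gave 1 with no filter and 0 to 1 with 1 library left out, and the lower side 0 to 2. The homeobox median of -0.02 was -0.0498, -0.0567 and -0.0546 without quantile normalization (pseudocounts of 1, 0.1 and 0.5) and -0.0477 to -0.0089 with 1 library left out. The median of all transcripts was then -0.03 for each pseudocount.

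With the replicate number as a block, 0 transcripts were called in all, and the MADS-box lower count was 0. The correlation of replicate deviations between groups was 0.0037 across tested transcripts. It thus showed no shift by replicate number shared over the transcripts as a whole. A pairing limited to some transcripts was not tested.

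Signs turned for some transcripts with log2 fold changes near 0. That of Os01t0922800-01 was -0.0402, -0.0407 and -0.0405 without quantile normalization (pseudocounts of 1, 0.1 and 0.5) and -0.0023 for gene sums. Leaving out 1 library gave a range of -0.0550 to 0.0656 for it, -0.17 to 0.22 for Os01t0635550-00, -0.13 to 0.0652 for Os02t0674800-01, -0.0945 to 0.0822 for Os03t0732100-01, -0.22 to 0.13 for Os08t0416000-01, -0.0405 to 0.12 for Os10t0536100-01 and -0.14 to 0.38 for Os10t0562100-01. *OsNAC14* kept its direction, but its limma adjusted p was 0.110 with the block, 0.0605 on omitting OsNAC14OX replicate 1, 0.124 on omitting NT replicate 1 and 0.303 on omitting NT replicate 2. The causes were not tested.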
